A study of Mus musculus with 33 samples.

Results

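The 4 opioid receptor genes and the 4 opioid peptide precursor genes of the mouse were followed in RNA sequencing of the nucleus accumbens, a part of the ventral striatum. They were taken by their symbols, Oprm1, Oprd1, Oprk1, Oprl1, Penk, Pdyn, Pomc and Pnoc, from a count table of 24053 genes, and all 8 were found and had enough reads to be tested. The 33 libraries, each taken as 1 mouse from its title, were of polyadenylated RNA from C57BL/6J mice 7 to 9 weeks old in 6 groups. Conventionally raised mice drank water (H2O, 6 saline and 5 morphine mice) or water with vancomycin (0.5 mg/mL), bacitracin (0.5 mg/mL), neomycin (2 mg/mL) and the antifungal pimaricin (1.2 µg/mL), called Abx (6 saline and 5 morphine mice), starting 2 weeks before the injections and kept on to the end. Germ-free mice (GF, 6 saline and 5 morphine mice) were of matched age, were bred in the institution and lived in isolators on sterilized food and water. Saline mice received vehicle, and morphine mice received 20 mg/kg of morphine sulfate per day for 7 days. GF and conventional mice therefore differed in supplier and housing as well as in microbes, and these cannot be told apart. Neither the sequencing batch nor the cage of each mouse was stated in the labels, so p-values measure the spread between these libraries.

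Opioid receptors are receptors of the cell surface that couple to inhibitory G proteins, lower cyclic AMP, open potassium channels and close calcium channels. The mu receptor (Oprm1) is the target of morphine, the delta receptor (Oprd1) binds enkephalins best, the kappa receptor (Oprk1) binds dynorphins, and the nociceptin receptor (Oprl1) binds nociceptin and hardly any opiate drug. In the accumbens, most neurons are medium spiny neurons: those with D2 dopamine receptors make enkephalin from Penk, and those with D1 receptors make dynorphin from Pdyn. Pomc, the precursor of beta-endorphin, is made mainly in the hypothalamus and pituitary, and Pnoc, the precursor of nociceptin, in scattered interneurons.

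The precursor messages carry the opioid core, 4 codons for tyrosine, glycine, glycine and phenylalanine, once for every opioid peptide they hold. The stretches below show what ties the 4 precursors together. They were read from GENCODE M21 transcripts on GRCm38, with the 4 core codons in capitals and the next codon, for the fifth residue, in lower case. The coding sequence of Penk held 7 such cores, 6 followed by methionine and 1 by leucine. That of Pdyn held 3, all followed by leucine, and that of Pomc held 1, followed by methionine. Pnoc held 1 stretch of the same form that opens with phenylalanine in place of tyrosine.
Penk, copy 1, chr4:4134334-4134348, minus strand: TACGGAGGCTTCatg
Penk, copy 6, chr4:4133941-4133955, minus strand: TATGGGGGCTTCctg
Pdyn, copy 1, chr2:129688238-129688252, minus strand: TATGGCGGCTTTttg
Pomc, copy 1, chr12:3960373-3960387, plus strand: TACGGTGGCTTCatg
Pnoc, copy 1, chr14:65404878-65404892, minus strand: TTTGGGGGCTTCacc

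Libraries held 4.87 to 15.3 M reads counted to genes. GF saline replicate 1 held 15.3 M and stood apart from the other 10 GF libraries, which held 4.87 to 8.13 M. Markers of the accumbens were present in every library: the 12 medium spiny neuron genes summed to 3267 to 11297 CPM (read counts scaled to the size of each library), and Drd1a and Drd2 had reads everywhere. That sum was lowest in GF saline replicate 5 (3267 CPM), Abx saline replicate 5 (4941 CPM) and GF saline replicate 2 (4978 CPM). Neighbouring tissue also varied. Slc17a7, a gene of cortical-type glutamatergic neurons, was at 1248 CPM in Abx saline replicate 5 and 990 CPM in H2O morphine replicate 4, but at 3.12 to 4.44 CPM in all 5 GF morphine libraries. Its median was 249 (H2O), 278 (Abx) and 5.53 CPM (GF) in saline mice. The highest GF saline value, 306 CPM, was that of replicate 1, and H2O saline libraries ranged from 8.42 to 596 CPM. In morphine mice the median was 69.7 (H2O), 562 (Abx) and 4.18 CPM (GF). The pituitary hormone gene Gh was at 2.22 to 54.8 CPM in GF libraries other than GF saline replicate 1, where it had no read, and at most at 2.32 CPM in conventional libraries. In depth, Slc17a7 and Gh, GF saline replicate 1 thus lay within the ranges of the conventional libraries.

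Levels of the 8 genes spanned about 3 orders, and the comparison between genes was made per kilobase of exon (CPM per kb). In H2O saline libraries Penk came first at 993 ± 97.6 CPM per kb (SD, n = 6), followed by Pdyn at 162 ± 17.3. The receptors came next, Oprl1 at 15.9 ± 2.20, Oprk1 at 8.13 ± 1.30 and Oprd1 at 5.66 ± 0.890 CPM per kb. Oprk1 and Oprd1 overlapped in their ranges. Pomc (1.88 ± 0.453) and Pnoc (1.83 ± 0.667) overlapped as well, and Oprm1 was lowest at 0.540 ± 0.111 CPM per kb. The order of the first 5 and the last place of Oprm1 were the same in all 6 groups, while Pnoc stood above Pomc in the 5 others. Oprm1 and Pomc overlapped in their ranges in Abx saline, GF saline, H2O morphine and Abx morphine libraries. Oprm1 rested on 15 to 141 reads per library, Pomc on 10 to 42 and Pnoc on 20 to 123, so these 3 genes carry the most counting error. Penk had 3840 to 20576 reads.

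**Figure D1:**
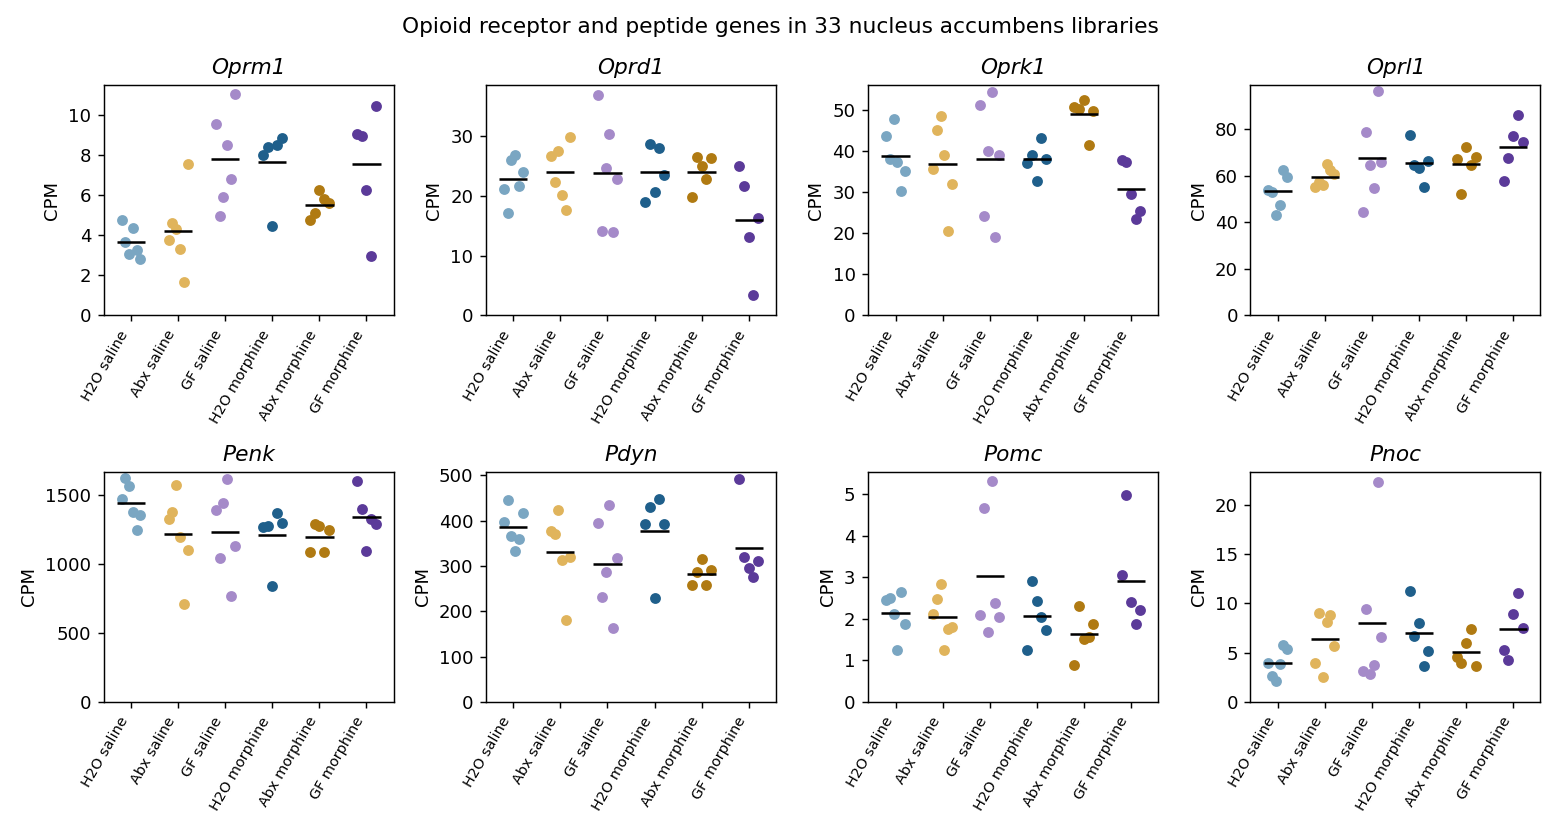
Level of each opioid gene (CPM, linear axes from 0) in each library, by group; points are libraries and bars are group means. Oprm1 is higher in GF saline (4.96 to 11.0 CPM) than in H2O saline libraries (2.83 to 4.75 CPM), while Penk, Pdyn and Oprd1 overlap between those groups.

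Few opioid genes passed the test, an edgeR quasi-likelihood test adjusted over all 14602 genes with a threshold of 0.05. In GF against H2O saline mice 2 of 8 passed, both higher, where 32.9% of all genes passed, 18% as higher. In GF against Abx saline mice 1 of 8 passed, higher, against 27.3% of all genes (14.4% higher). In GF against Abx morphine mice 2 of 8 passed, 1 higher and 1 lower, against 28.1% of all genes (15% higher and 13.1% lower). With only 8 genes, nothing about them is read from these shares. The median log2 fold change of the 8 genes was 0.21, 0.12 and 0.22 in these comparisons, beside 0.01, -0.00 and 0.01 over all genes.

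In the other 9 comparisons edgeR called 0 of the 8 genes. The background was 0.116% of all genes in Abx against H2O saline mice, where 0 of 8 had an unadjusted p under 0.05, and 0% in H2O morphine against H2O saline mice, where 2 of 8 did. It was 5.37% for morphine in Abx mice (1 of 8 with an unadjusted p under 0.05) and 0.00685% for morphine in GF mice (1 of 8). For GF and Abx against H2O within morphine mice it was 5.78% and 10.4% (1 of 8 in each). For morphine averaged over the 3 microbiome states it was 0.959% (2 of 8), and for the interactions, the morphine responses of Abx and GF mice against that of H2O mice, 0.11% (0 of 8) and 0% (1 of 8). DESeq2 called 1 opioid gene, Oprm1, for morphine in H2O mice and 0 in the other 8 of these comparisons. Voom with quality weights, in limma, called Oprm1 and Oprl1 there, Oprm1 and Pdyn in Abx against H2O morphine mice, Oprm1 in the average, and 0 in the other 6.

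**Figure D2:**
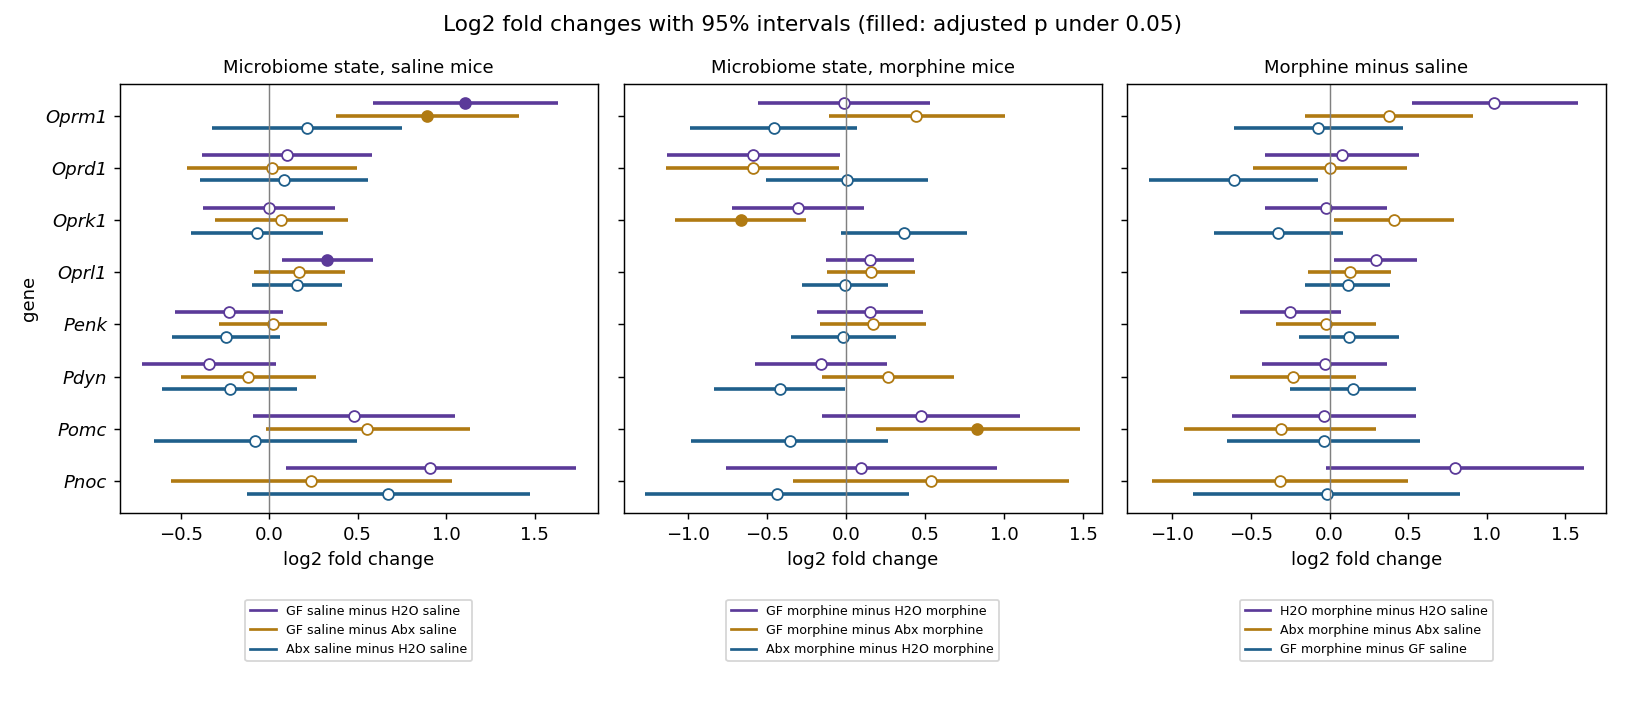
Log2 fold change of each opioid gene (horizontal axis) with its 95% interval from edgeR, in 9 comparisons of pairs of groups; filled points passed an adjusted p of 0.05. Filled points are Oprm1 and Oprl1 in GF against H2O saline mice, Oprm1 in GF against Abx saline mice, and Oprk1 (lower) and Pomc (higher) in GF against Abx morphine mice.

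Oprm1, the mu receptor gene, had the largest difference of the 8 genes between GF and H2O saline mice. Its level was 2.83 to 4.75 CPM with a median of 3.47 in the 6 H2O saline libraries, and 4.96 to 11.0 CPM with a median of 7.63 in the 6 GF saline libraries. The groups did not overlap, and even the lowest GF library lay above the highest H2O library. Oprm1 rose by 1.11 ± 0.26 on the log2 scale (SE, edgeR adjusted p = 0.00164), with group means of 7.78 ± 2.30 and 3.66 ± 0.754 CPM. Without GF saline replicate 1 the log2 fold change was 1.03 (edgeR adjusted p = 0.00385). Abx saline libraries ranged from 1.64 to 7.53 CPM with a median of 4.03, and their lowest value was that of replicate 5, the library with the most Slc17a7. Against them Oprm1 was higher in GF saline mice by 0.89 ± 0.25 (edgeR adjusted p = 0.00951), and 3 of the 6 GF libraries exceeded every Abx library. Abx against H2O saline mice gave 0.21 ± 0.26 (edgeR adjusted p = 0.807). The median of Slc17a7 was 5.53 CPM in GF, 249 CPM in H2O and 278 CPM in Abx saline libraries. The part of cortical tissue in these Oprm1 differences was not tested.

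Among morphine mice Oprm1 did not pass between any pair of microbiome states with edgeR. The 5 H2O morphine libraries were at 7.99, 8.38, 4.45, 8.47 and 8.86 CPM. The 5 Abx morphine libraries were at 4.78, 5.10, 6.25, 5.82 and 5.61 CPM, and the 5 GF morphine libraries at 9.05, 8.95, 6.24, 2.97 and 10.4 CPM. Of the H2O morphine libraries 4 lay above the whole H2O saline range and 1, replicate 4, lay within it, while GF morphine and GF saline libraries overlapped. Morphine minus saline on the log2 scale was 1.05 ± 0.26 in H2O mice (edgeR adjusted p = 0.0794, unadjusted p = 0.000305), 0.38 ± 0.26 in Abx mice (edgeR adjusted p = 0.442) and -0.07 ± 0.26 in GF mice (edgeR adjusted p = 0.969). The response of GF minus that of H2O mice was -1.12 ± 0.37 (edgeR adjusted p = 0.148), so a difference between the responses did not pass. The GF and the morphine comparison share the H2O saline libraries as their lower group. The median of Slc17a7 was 69.7 CPM in H2O morphine and 249 CPM in H2O saline libraries, and 562 CPM in Abx morphine libraries. The part of cortical tissue in these Oprm1 values was not tested.

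For Oprm1, the call of a higher level in GF saline mice, against H2O or Abx, was kept under all 11 alternative settings and without any 1 library. The call for morphine in H2O mice was made in 5 of 11 alternatives, among them DESeq2, and in 0 of 11 fits that left out 1 library. Log2 fold changes in H2O mice without 1 library were 0.98 to 1.20. A gene on the opposite strand, Ipcef1, overlaps Oprm1 over 152431 bases of its extent and 96 bases of exons in GRCm38 (Oprm1, chr10:6758593-7038209), and the strand setting of the counts is not given in the sources used here, so their reads cannot be told apart there. Ipcef1 was at 28.2 ± 3.81 CPM in GF saline and 23.1 ± 5.17 CPM in H2O saline libraries (log2 fold change 0.29, edgeR adjusted p = 0.455), and its highest value, 76.7 CPM, was in Abx saline replicate 5, where Oprm1 was lowest.

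**Figure D3:**
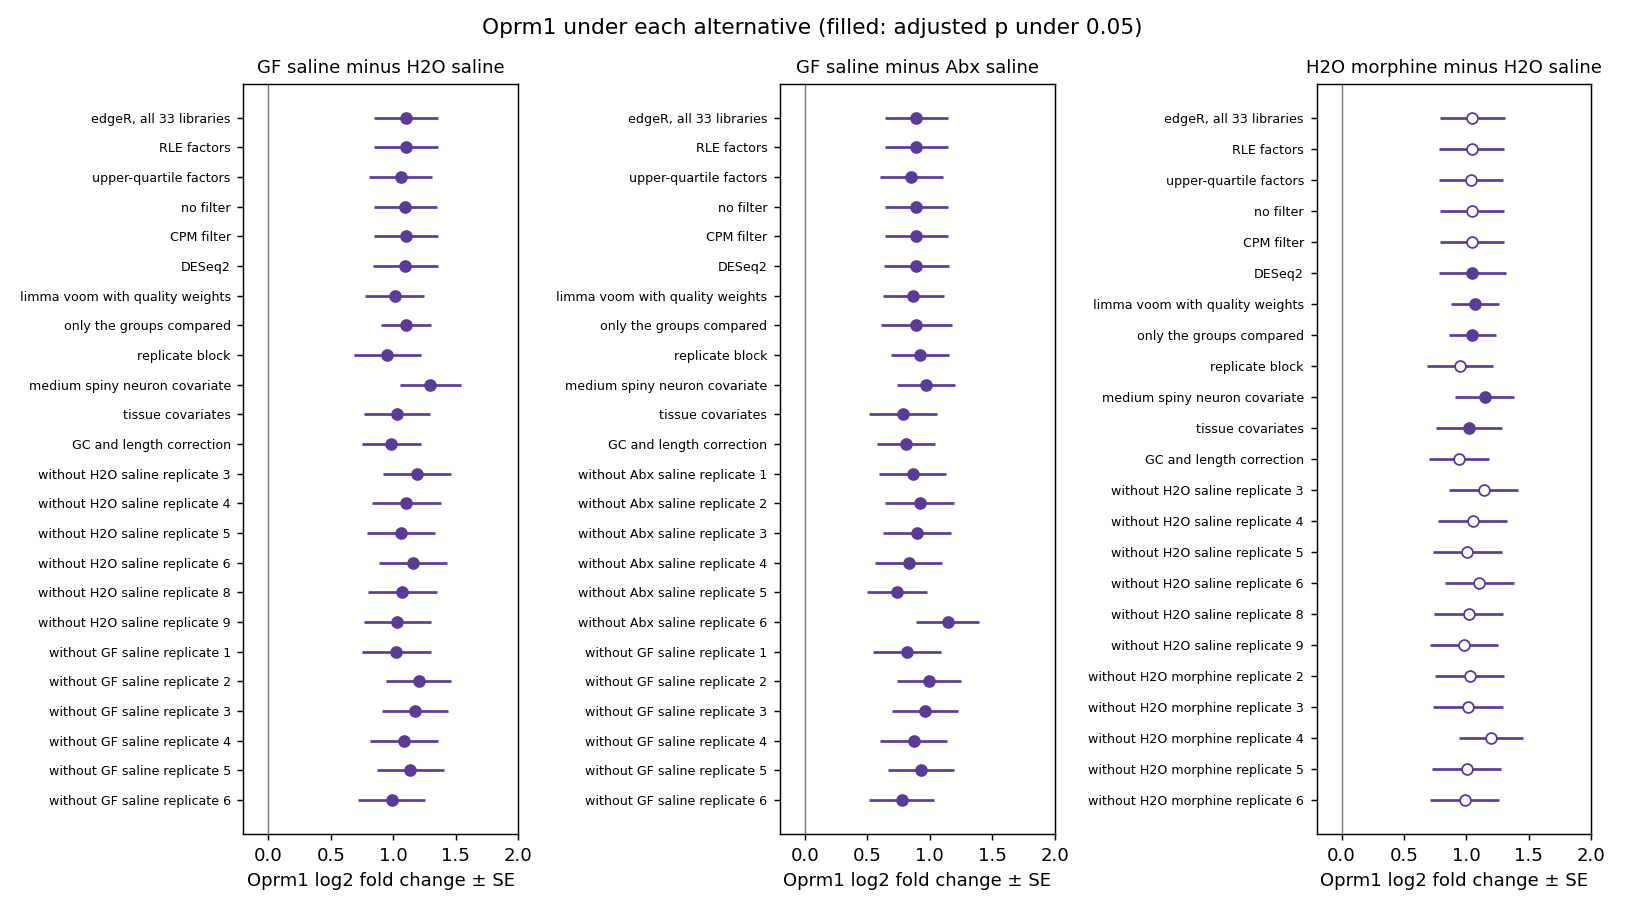
Log2 fold change of Oprm1 ± SE (horizontal axis) in 3 comparisons under each setting and without each library (rows); filled points passed an adjusted p of 0.05. All points are filled for GF saline against H2O saline and Abx saline, and 5 of the 11 alternatives are filled for morphine in H2O mice.

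Oprl1, the nociceptin receptor gene, was also higher in GF than in H2O saline mice, by a smaller amount. It ranged from 43.1 to 62.7 CPM with a median of 53.5 in H2O saline libraries and from 44.6 to 96.5 CPM with a median of 65.4 in GF saline libraries. Of the GF libraries 4 lay above the H2O range, and the highest was replicate 5, the library with the lowest medium spiny neuron sum. Oprl1 rose by 0.33 ± 0.13 on the log2 scale (edgeR adjusted p = 0.0449). The log2 fold change was 0.21 without GF saline replicate 5 (edgeR adjusted p = 0.176) and 0.43 without GF saline replicate 1 (edgeR adjusted p = 0.00488). With the mean of the medium spiny neuron genes as a covariate it was 0.08 (edgeR adjusted p = 0.444). The call was made in 4 of 12 fits that left out 1 library and in 4 of 11 alternatives. In the other comparisons the log2 fold changes of Oprl1 lay between -0.01 and 0.29 for pairs of groups.

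Oprk1, the kappa receptor gene, was lower in GF than in Abx morphine mice. The 5 Abx morphine libraries were at 50.8, 50.5, 52.6, 41.6 and 49.9 CPM, and the 5 GF morphine libraries at 37.9, 37.4, 29.6, 23.4 and 25.5 CPM. All 5 GF libraries lay below the lowest Abx library. The log2 fold change was -0.67 ± 0.20 (edgeR adjusted p = 0.0148), and the call was made in 11 of 11 alternatives and 10 of 10 fits without 1 library. With the medium spiny neuron covariate it was -0.45 (edgeR adjusted p = 0.000308). The summed medium spiny neuron level was 5559 to 8597 CPM with a median of 5875 in GF morphine libraries. It was 6892 to 9000 CPM with a median of 7869 in Abx morphine libraries. Oprk1 averaged 38.8 ± 6.21 CPM (H2O), 36.9 ± 10.1 (Abx) and 38.1 ± 14.1 (GF) in saline mice. In morphine mice it averaged 38.1 ± 3.84 (H2O), 49.1 ± 4.29 (Abx) and 30.8 ± 6.68 (GF). Abx minus H2O morphine mice gave 0.36 ± 0.20 (edgeR adjusted p = 0.252, called in 2 of 11 alternatives), with 4 of 5 Abx libraries above the H2O range. Morphine in Abx mice gave 0.41 ± 0.19 (edgeR adjusted p = 0.206), and GF minus H2O morphine mice -0.31 ± 0.21 (edgeR adjusted p = 0.373). No other pair of groups passed in the main edgeR fit.

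Oprd1, the delta receptor gene, did not pass in any comparison. It averaged 22.7 ± 3.58 CPM (H2O), 24.0 ± 4.75 (Abx) and 23.8 ± 9.00 (GF) in saline mice, and 23.9 ± 4.29 (H2O) and 24.0 ± 2.81 (Abx) in morphine mice. The 5 GF morphine libraries were lower on average, at 25.1, 21.6, 13.0, 3.43 and 16.2 CPM. The lowest of them, replicate 5, rested on 22 reads and was the lowest of all 33 libraries. GF against Abx morphine mice gave -0.59 ± 0.27 (edgeR adjusted p = 0.0950), with 3 of 5 GF libraries below the Abx range. Without 1 library it ranged from -0.83, without GF morphine replicate 1 (edgeR adjusted p = 0.0265), to -0.34, without GF morphine replicate 5 (edgeR adjusted p = 0.264), and 1 of these 10 fits passed.

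Penk, the enkephalin precursor, did not pass in any comparison in the main edgeR fit, which had no covariate. With the medium spiny neuron covariate it passed as higher in GF than in H2O morphine mice (edgeR adjusted p = 0.0119). It also did so in GF against Abx morphine mice (edgeR adjusted p = 0.00257), in each case in 1 of 11 alternatives. It was at 1245 to 1623 CPM with a median of 1422 in H2O saline libraries, 711 to 1575 CPM with a median of 1264 in Abx saline libraries and 766 to 1614 CPM with a median of 1260 in GF saline libraries. The lowest value of each of the 2 last groups came from its replicate 5, and both are libraries of low medium spiny neuron sum. GF against H2O saline mice gave -0.23 ± 0.15 (edgeR adjusted p = 0.252), with 3 of 6 GF libraries below the H2O range. Morphine gave -0.25 ± 0.16 in H2O mice, -0.02 ± 0.16 in Abx mice and 0.13 ± 0.16 in GF mice.

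Pdyn, the dynorphin precursor, did not pass in the main edgeR fit either. It ranged from 333 to 446 CPM with a median of 382 in H2O saline libraries and from 163 to 435 CPM with a median of 302 in GF saline libraries, 4 of 6 of them below the H2O range. The log2 fold change was -0.34 ± 0.19 (edgeR adjusted p = 0.161). Among morphine mice, the 5 Abx libraries were at 259, 287, 316, 259 and 291 CPM and the 5 H2O libraries at 393, 430, 229, 448 and 392 CPM. All but 1 of the H2O libraries, replicate 4, lay above every Abx library, and the log2 fold change of Abx against H2O was -0.42 ± 0.20 (edgeR adjusted p = 0.197). Pdyn passed for this pair in 2 of 11 alternatives, voom and the medium spiny neuron covariate. GF against Abx morphine mice gave 0.26 ± 0.21 (edgeR adjusted p = 0.349), and Pdyn passed there in 1 of 11 alternatives, with that covariate (edgeR adjusted p = 0.00202).

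Penk and Pdyn were then set beside the markers of the neurons that make them. The ratio of Penk to 6 markers of D2 medium spiny neurons, and of Pdyn to 6 markers of D1 neurons, was taken per library on the log2 scale with a pseudocount of 1 CPM, in 18 tests. The Penk ratio averaged 4.52 ± 0.16 (GF), 4.21 ± 0.09 (Abx) and 4.05 ± 0.14 (H2O) in morphine mice. All 5 GF libraries lay above all libraries of both other groups. The differences were 0.47 against H2O and 0.31 against Abx (exact two-sided permutation test, p = 0.00794 for each, the smallest that 5 against 5 can give, adjusted p = 0.0357). Penk alone differed by 0.15 and 0.17 on the log2 scale (edgeR adjusted p = 0.608 and 0.466). The D2 markers averaged 5.83 ± 0.29 (GF), 5.99 ± 0.15 (Abx) and 6.15 ± 0.23 (H2O) in log2 CPM, so lower D2 markers form a part of both differences. The Pdyn ratio was lower in GF than in H2O saline mice by -0.31 (2.32 ± 0.11 against 2.63 ± 0.13, exact p = 0.00433, adjusted p = 0.0357), with 5 of 6 GF libraries below the H2O range. Abx minus H2O saline mice gave a like difference of -0.32 that did not pass (exact p = 0.0346, adjusted p = 0.104). Of the 6 Abx saline libraries 4 lay below the H2O range. GF minus Abx saline mice gave 0.01 (exact p = 0.929). The Pdyn ratio was higher in GF than in Abx morphine mice by 0.44 (2.53 ± 0.23 against 2.09 ± 0.08, exact p = 0.00794, adjusted p = 0.0357). Pdyn alone differed there by 0.26 (edgeR adjusted p = 0.349), and the D1 markers averaged 5.79 ± 0.12 (GF) and 6.01 ± 0.06 (Abx) in log2 CPM. With Drd2 or Drd1a alone in place of the marker lists, the 4 differences that had passed were 0.49, 0.27, -0.13 and 0.49, and none passed (adjusted p of exact tests 0.107, 0.214, 0.486 and 0.0952). The Penk difference between GF and Abx morphine mice kept its direction without any 1 library (0.25 to 0.35) but no longer passed without Abx morphine replicate 1, 2, 4 or 5 or GF morphine replicate 5 (adjusted p of exact tests 0.0571 to 0.0714). In these tests the GF libraries still lay above all Abx libraries, and an exact p of so few libraries moves in coarse steps. Dependence on those libraries is thus not read from the lost calls. Without GF saline replicate 1 the Penk ratio passed as higher in GF than in H2O saline mice (0.19, adjusted p of an exact test 0.0408) and than in Abx saline mice (0.27, 0.0312). The Pdyn ratio of Abx minus H2O morphine mice was -0.46 (adjusted p of an exact test 0.0571), and it passed without H2O morphine replicate 2 or 4 (-0.42 and -0.56, adjusted p of exact tests 0.0476 and 0.0286).

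**Figure D4:**
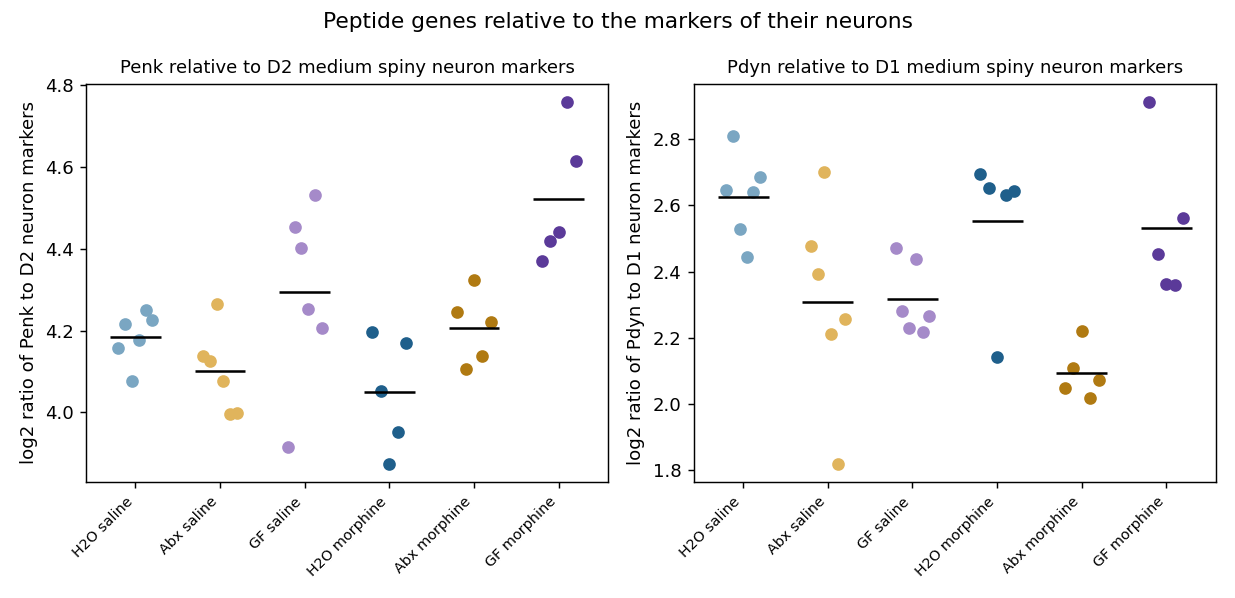
Log2 ratio of Penk to D2 markers and of Pdyn to D1 markers (vertical axes) in each library, by group; bars are group means. The Penk ratio of all GF morphine libraries lies above those of H2O and Abx morphine libraries, and the Pdyn ratio of the Abx morphine libraries is low, with a mean of 2.09.

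Pomc, the beta-endorphin precursor, was the least abundant gene by reads and was higher in GF than in Abx morphine mice. The 5 GF morphine libraries were at 3.06, 4.99, 2.41, 1.87 and 2.22 CPM and the 5 Abx morphine libraries at 0.902, 2.32, 1.50, 1.55 and 1.87 CPM. The groups overlapped, 3 of the 5 GF libraries exceeding every Abx library. Pomc rose by 0.83 ± 0.32 (edgeR adjusted p = 0.0475). Without GF morphine replicate 2 the log2 fold change was 0.54 (edgeR adjusted p = 0.225), and the call was made in 3 of 10 fits without 1 library. In GF saline libraries it was at 2.09, 4.66, 1.69, 5.32, 2.39 and 2.05 CPM, against 1.26 to 2.65 CPM in H2O saline libraries, which did not pass (log2 fold change 0.48, edgeR adjusted p = 0.186).

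The 3 highest Pomc values of the 33 libraries, 5.32, 4.99 and 4.66 CPM, came from GF saline replicate 4, GF morphine replicate 2 and GF saline replicate 2. Gh, made in another cell type of the pituitary than Pomc, was at 54.8, 33.5 and 3.91 CPM in them. The 8 pituitary markers summed to 0.675 to 67.9 CPM in GF saline and 2.56 to 37.1 CPM in GF morphine libraries, and to at most 3.38 CPM in conventional ones. The part of pituitary tissue in the Pomc result was not tested.

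Pnoc, the nociceptin precursor, did not pass in any comparison with edgeR. It was at 2.12 to 5.75 CPM with a median of 3.90 in H2O saline libraries and at 3.17, 9.47, 2.82, 3.80, 22.3 and 6.54 CPM in GF saline libraries. Replicate 5 was far above the others, and 3 of 6 GF libraries lay above the H2O range. The log2 fold change was 0.91 ± 0.40 (edgeR adjusted p = 0.0787). DESeq2 called it (1.0, adjusted p = 0.0333), the 1 of 11 alternatives that did. It was 0.34 without GF saline replicate 5, 1.11 without GF saline replicate 1 (edgeR adjusted p = 0.0291), 1.09 without GF saline replicate 3 (edgeR adjusted p = 0.0434), and 0.00 with the medium spiny neuron covariate.

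Across libraries, 6 of the 8 genes followed the 12 medium spiny neuron genes, 4 upwards and 2 downwards. The share of all genes that did so was not computed, so nothing particular to the opioid genes is read from this count. Over the 33 libraries Pearson's r with the mean log2 CPM of the medium spiny neuron genes was 0.83 for Oprk1 (Spearman's rho 0.69), 0.81 for Pdyn (0.75), 0.80 for Penk (0.79) and 0.64 for Oprd1 (0.77). It was -0.85 for Oprl1 (-0.84) and -0.85 for Pnoc (-0.81). Each of these 6 had an adjusted permutation p of at most 0.00261 for r over 24 relations, 8 genes with 3 marker lists (medium spiny neurons, striatal interneurons and hypothalamus). For Oprm1 (r = 0.09, rho = 0.01, adjusted permutation p = 0.723) and Pomc (r = 0.03, rho = 0.19, adjusted permutation p = 0.915) it did not pass; for Oprm1 it was 0.48 once group means were removed. Without the 2 libraries farthest from the median, GF saline replicates 5 and 2, r was 0.77 for Oprk1, 0.72 for Pdyn, 0.73 for Penk, 0.66 for Oprd1, -0.80 for Oprl1 and -0.78 for Pnoc.

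Other markers moved with the same genes. With the hypothalamus list r was 0.73 for Oprl1 (rho 0.64) and 0.71 for Pnoc (rho 0.58), each with an adjusted permutation p of 3e-05, and 0.62 and 0.53 without the 2 farthest libraries. It was 0.48 for each in conventional libraries, and 0.89 and 0.92 in GF libraries. It was -0.51 for Oprk1 (rho -0.44, adjusted permutation p = 0.00737) and -0.46 for Oprd1 (rho -0.39, adjusted permutation p = 0.0379), but -0.04 for each in conventional libraries. With the interneuron list r was 0.67 for Oprl1 (rho 0.66, adjusted permutation p = 3e-05; 0.47 in conventional and 0.76 in GF libraries; 0.68 without the 2 farthest) and 0.40 for Pnoc (rho 0.38, adjusted permutation p = 0.0379). It was -0.42 for Oprd1 and -0.38 for Oprk1 (adjusted permutation p = 0.0175 and 0.0461), with 0.10 and 0.07 in conventional libraries. The part of these tissues in the Oprl1 and Pnoc values was not tested.

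The relations to the medium spiny neuron genes held among conventional and among GF libraries taken apart. In the 22 conventional libraries r was 0.63 for Oprk1, 0.76 for Pdyn, 0.91 for Penk, 0.56 for Oprd1, -0.66 for Oprl1 and -0.74 for Pnoc. In the 11 GF libraries it was 0.95, 0.90, 0.88, 0.63, -0.95 and -0.94. In these bulk samples, fewer medium spiny neurons and less RNA of these genes per neuron cannot be told apart, and the part of either in the group differences was not tested. For Oprm1 the covariate moved the difference between GF and H2O saline mice from 1.11 to 1.30.

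**Figure D5:**
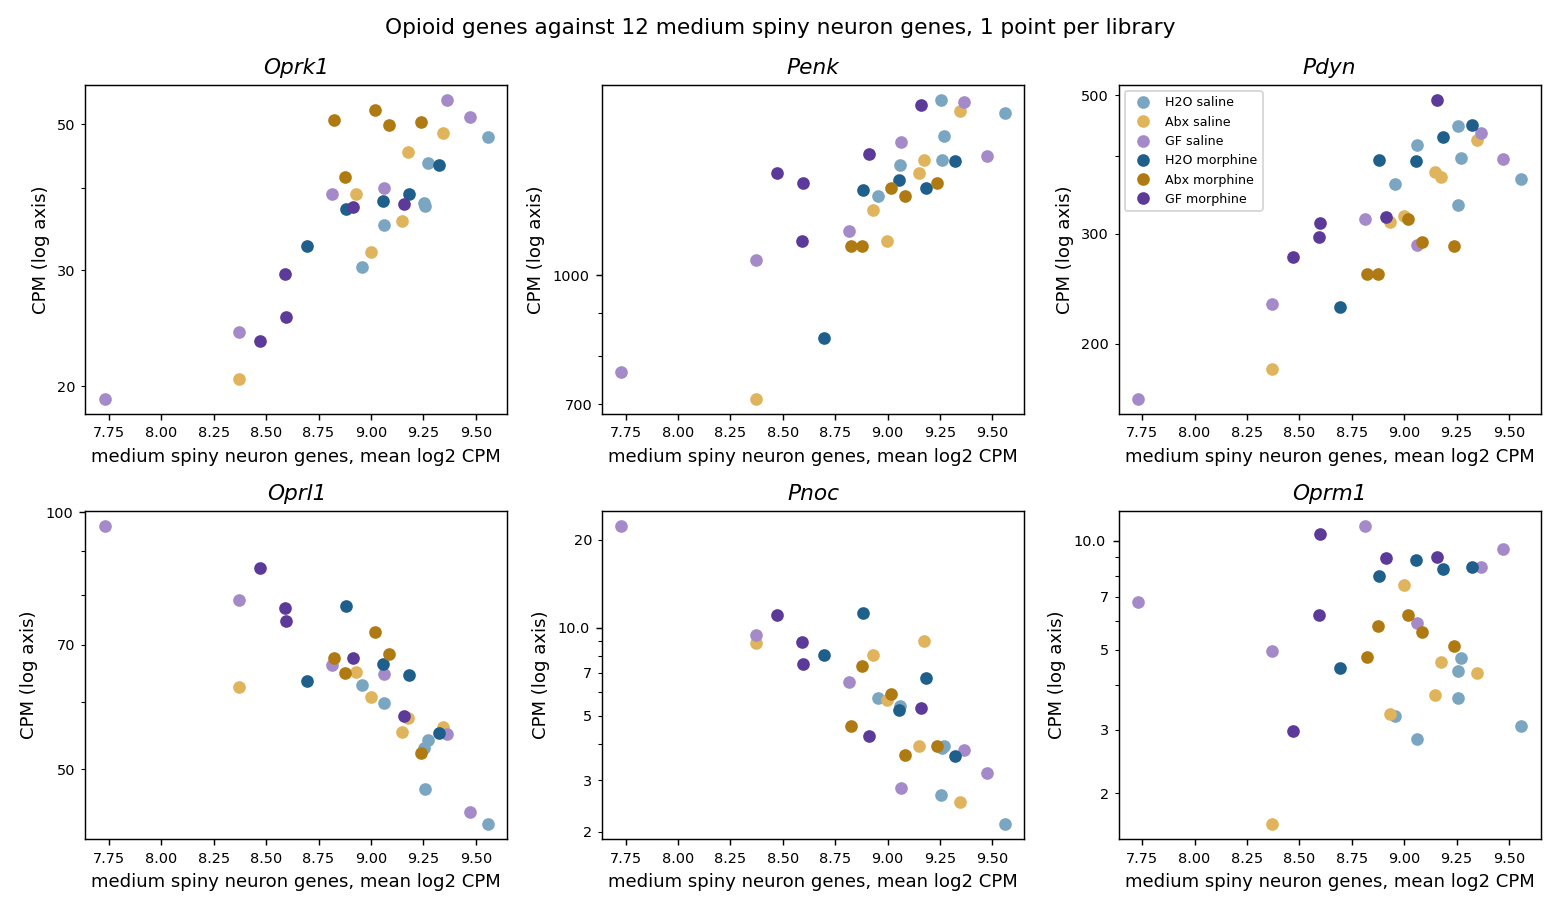
CPM of 6 opioid genes (log axes) against the mean log2 CPM of 12 medium spiny neuron genes, 1 point per library, coloured by group. Oprk1, Penk and Pdyn increase and Oprl1 and Pnoc decrease along the axis (r from 0.80 to 0.83 and -0.85), while Oprm1 has an r of 0.09.

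Among the opioid genes themselves, the closest pairs were among the 6 that followed the medium spiny neuron genes. Of 28 pairs, Penk and Pdyn had the highest r, 0.86 (rho 0.75, adjusted permutation p = 9.33e-05; 0.87 in conventional and 0.89 in GF libraries; 0.76 without the 2 farthest libraries). Oprl1 and Pnoc, the receptor and the precursor of nociceptin, followed with 0.79 (rho 0.70, adjusted permutation p = 9.33e-05; 0.69 and 0.86; 0.69 without the 2 farthest). Penk and Pnoc went opposite ways, with -0.69 (rho -0.69, adjusted permutation p = 9.33e-05; -0.64 and -0.83; -0.61 without the 2 farthest). Oprm1 had r from 0.01 to 0.30 with the other 7 genes, none with an adjusted permutation p under 0.149. With Oprd1 its r was 0.30 over all libraries (rho 0.24), 0.44 in conventional and 0.81 in GF libraries, and 0.69 once group means were removed. Pomc had r from -0.09 to 0.22 with the other 7 genes, and none passed.

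The genes most like each opioid gene were taken as the 3 with the highest r of log2 CPM over 33 libraries among 11288 genes of at least 5 CPM. For Penk they were Ptpn5, Kcnip2 and Necab2 (r = 0.91, 0.91 and 0.90). For Pdyn they were Cacna2d3, Map2k1 and Prkch (0.92, 0.91 and 0.91), and for Oprk1 Kdm3a, Pde4b and Lpl (0.90, 0.89 and 0.88). For Oprd1 they were Myh10, Foxo3 and Strn (0.93, 0.91 and 0.91). For Oprl1 they were Adarb2, Tmem145 and Grik1 (0.93, 0.93 and 0.92), and for Pnoc Fxyd6, Calb2 and Gpx3 (0.91, 0.90 and 0.89). Oprm1 was most like Nrxn3, Dync2h1 and Nkain3 (0.88, 0.87 and 0.86; 0.81, 0.74 and 0.77 once group means were removed). No gene reached 0.65 with Pomc, whose first was Spice1 (0.64).

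The genes around the receptors were described by 8 lists of 76 genes, 75 of them tested, and 3 comparisons held most of their calls. In GF against H2O saline mice 12 were higher and 9 lower, 28.0% beside 32.9% of all genes, with a median log2 fold change of -0.01 beside 0.01. In GF against Abx saline mice 11 were higher and 8 lower (25.3% beside 27.3%), and in GF against Abx morphine mice 12 and 9 (28.0% beside 28.1%). In Abx mice morphine gave 0 higher and 5 lower (6.67% beside 5.37%). The share of all genes by direction was not computed there, so nothing is read from this direction. All 5 called genes were lower by less than 0.50 on the log2 scale: Rnpep (-0.48), Rgs19 (-0.47), Grk5 (-0.37), Npepps (-0.28) and Gnai2 (-0.24), named after their values were seen. Morphine gave 0 calls with edgeR among these 75 genes in H2O mice (12 with an unadjusted p under 0.05) and in GF mice (3).

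In GF against H2O saline mice, the precursor-cleaving convertase gene Pcsk1 rose by 0.80 ± 0.20 (edgeR adjusted p = 0.00298), and its partner Pcsk2 changed by -0.45 ± 0.16 (edgeR adjusted p = 0.0246), 2 of 8 processing genes. Of 8 genes for enzymes that break down peptides, 4 fell, among them Thop1 (-0.26 ± 0.05), Anpep (-0.62 ± 0.17) and Ece1 (-0.26 ± 0.07), and 1 rose, Ace (0.62 ± 0.18). Of 12 G protein genes, Gnai3 (0.42 ± 0.08), Gnai1 (0.26 ± 0.07) and Gng2 (0.70 ± 0.21) rose, the first 2 coding for inhibitory alpha subunits, and 2 fell, among them Gnb2 (-0.40 ± 0.07). Rgs14, a brake on G protein signalling, was the 1 of 10 RGS genes that passed (-0.36 ± 0.12).

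Further along the pathway, 2 of 7 desensitisation genes rose, the receptor kinase genes Grk4 (0.72 ± 0.20) and Adrbk2 (0.44 ± 0.17). Of 14 adenylyl cyclase and protein kinase A genes 3 rose, Prkar2a (0.50 ± 0.09), Prkar1a (0.17 ± 0.05) and Adcy7 (0.77 ± 0.27), and 0 fell. Of all genes 18% passed as higher in GF against H2O saline mice, and 32.9% in either direction. Nothing about the pathway lists is read from such small counts. Kcnj5, a subunit of the potassium channels that opioid receptors open, was the 1 of 7 channel genes that passed (1.01 ± 0.38, edgeR adjusted p = 0.0421). Of 9 tested genes of receptor partners and anti-opioid systems, Gprasp1, whose protein sorts opioid receptors for breakdown, rose by 0.39 ± 0.09, and Ogfr, the receptor gene of the opioid growth factor, changed by -0.38 ± 0.07.

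Between GF and Abx morphine mice, Pcsk2 (-0.76 ± 0.17), Mme, the gene of the enkephalin-cleaving neprilysin (-0.67 ± 0.20), Ogfr (-0.29 ± 0.07) and Adcy1 (-0.89 ± 0.29) were lower. So were Adcy9 (-0.55 ± 0.13), Kcnj9 (-0.59 ± 0.21), Cckbr (-0.54 ± 0.20) and Adrbk2 (-0.50 ± 0.18). Adrbk2 thus went the opposite way to its rise in GF against H2O saline mice. Rnpep (0.57 ± 0.10), Npepps (0.39 ± 0.05), Ece2 (0.78 ± 0.19), Rgs2 (0.41 ± 0.13), Grk5 (0.51 ± 0.10), Gnai1 (0.25 ± 0.07) and Prkar1a (0.21 ± 0.05) were higher. Gnai2 (0.22 ± 0.07), Rgs19 (0.42 ± 0.14), Prkar2a (0.31 ± 0.10) and Gprasp1 (0.30 ± 0.09) were higher as well. Cck, an anti-opioid peptide gene that is abundant in cortex, changed by -2.95 ± 0.89 (edgeR adjusted p = 0.0135). Beside it, Slc17a7 averaged 3.93 ± 0.583 CPM in GF morphine and 477 ± 282 CPM in Abx morphine libraries, and all 8 cortical-type markers passed as lower, so the part of cortical tissue in the Cck value was not tested.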

How the data were processed

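The authors deposited raw counts of reads by gene symbol, made with FastQC, STAR 2.4.0 and edgeR named per the submitters' processing notes. Build, annotation, strand setting and counter were not given in the sources used here. A second table holds the authors' normalised signal, the count divided by 1 constant per library, for 10871 genes. It holds 5 of the 8 opioid genes and was not used for tests. Of 27 gene names turned into dates, 19 were restored and 8 left out. Between 19.3% and 35.4% of the reads in the table had no gene assigned.

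The test was run with edgeR 4.0.16 under R 4.3.3 (filterByExpr at a minimum count of 10, TMM factors, 1 quasi-likelihood fit of 6 group means over 33 libraries, 27 residual degrees of freedom, two-sided, Benjamini-Hochberg over 14602 genes, threshold 0.05). The code was tested on simulated data. CPM are TMM-scaled, and SD are between libraries. Correlations used log2 CPM with 100000 permutations, which shuffled the libraries without regard to group. Exon lengths, shared exon bases and the positions of the opioid cores are GENCODE M21, and the extents of genes are RefSeq. All are on GRCm38 and matched by symbol. Alternatives were upper-quartile or RLE factors, dropping the filter, a filter of 1 CPM in 5 libraries, DESeq2 1.42.0, limma 3.58.1 voom with quality weights, only the groups compared, a replicate block, covariates for medium spiny neuron genes or for hypothalamic and cortical-type genes, a GC and length correction, and leaving out each library. The 8 genes were named in all comparisons. Of each pathway list at most the 4 genes with the smallest p were to be named in comparisons where an opioid gene passed. This was done for GF against H2O saline and GF against Abx morphine mice, and left out for GF against Abx saline mice. The opioid genes and lists were chosen with earlier results of these data known.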

Additional observations from a re-analysis of the deposited data

Results flagged for a closer look

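In 6 of 48 sets of an opioid gene in a group, 1 library lay far from the others of its group. The rule is set to mark about 1 in 20 sets by chance. The 48 sets share libraries and hold genes that move together, so chance is not judged from this number. H2O morphine replicate 4 was the low library for 3 genes: Oprm1 at 4.45 CPM beside 7.99 to 8.86, Penk at 841 CPM beside 1266 to 1371, and Pdyn at 229 CPM beside 392 to 448. Slc17a7 was at 990 CPM in that library and at 3.48 to 124 CPM in the others of its group. Oprk1 was at 41.6 CPM in Abx morphine replicate 4, beside 49.9 to 52.6. Pdyn was at 492 CPM in GF morphine replicate 1, beside 275 to 319. Pnoc was at 22.3 CPM in GF saline replicate 5, the library with the lowest medium spiny neuron level, beside 2.82 to 9.47.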

How the results depend on the processing

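The number of opioid genes called in GF against H2O saline mice, 2, became 1 with upper-quartile factors, no filter, voom, only the groups compared, tissue covariates or the GC and length correction, Oprm1 alone in each, 3 with DESeq2, which added Pnoc, and 1 to 3 without 1 library. In GF against Abx morphine mice, 2 became 1 with no filter, only the groups compared or tissue covariates, and 1 to 2 without 1 library. The medium spiny neuron covariate gave 4 there, adding Penk and Pdyn. Where edgeR called 0, morphine in H2O mice gave 1 with DESeq2, only the groups compared, or either covariate and 2 with voom. Abx against H2O morphine mice gave 2 with voom or the neuron covariate and 1 with only the groups compared. The neuron covariate gave 1 for morphine in Abx mice (Oprk1), for GF against H2O morphine mice (Penk) and for the average (Oprm1). The average was also 1 with voom, and 0 to 1 without 1 library (1 without GF morphine replicate 5). With that covariate, Oprk1 in GF against H2O saline mice turned from -0.00 to 0.28 and passed (edgeR adjusted p = 0.00841) while Oprl1 did not (0.444), so its 2 called genes were Oprm1 and Oprk1. Why these counts moved was not tested.

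With Drd2 alone as the denominator, the Penk ratio was 0.49 (GF minus H2O morphine) and 0.27 (GF minus Abx morphine), and with Drd1a alone the Pdyn ratio was -0.13 (GF minus H2O saline) and 0.49 (GF minus Abx morphine), none of which passed. A pseudocount of 0.25 CPM changed no call. Without 1 library, the Penk ratio ranged from 0.063 to 0.19 (GF minus H2O saline), 0.15 to 0.27 (GF minus Abx saline), -0.17 to -0.091 (morphine in H2O mice) and 0.25 to 0.35 (GF minus Abx morphine). The Pdyn ratio ranged from -0.39 to -0.22 (Abx minus H2O saline), -0.31 to -0.14 (morphine in Abx mice) and -0.56 to -0.42 (Abx minus H2O morphine). Calls were gained for Pdyn without Abx saline replicate 3 (Abx minus H2O saline, adjusted p of an exact test 0.0286), without Abx saline replicate 5 (morphine in Abx mice, 0.0476) and without H2O morphine replicate 2 or 4 (Abx minus H2O morphine), and for Penk without H2O morphine replicate 2 (morphine in H2O mice, 0.0476).

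Same-numbered mice did not deviate together (66 pairs, mean r -0.000700, from -0.473 to 0.462), and 2 of 31 libraries were most like one of their own number. A replicate block left the opioid genes called at 2, 1 and 2 in the 3 comparisons with calls and at 0 in the others. Depth limits Oprm1, Pomc and Pnoc, with as few as 15, 10 and 20 reads in a library.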
